A study of Mus musculus with 20 samples.

Results

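The second hour of the response to lipopolysaccharide (LPS) and interferon gamma (IFNg) was described, across all genes, in mouse bone marrow-derived macrophages that had first been treated with dimethyl itaconate (DI). DI libraries taken 2 h after the stimulus (n = 2) were set against DI libraries taken at 1 h (n = 2), 4 of the 20 RNA-seq libraries of the series. Of 22165 genes in the count table, 10663 passed the filter on low counts and were tested. All cells were wild-type C57BL/6 and were grown from bone marrow in RPMI with m-CSF for 7 days. The DI groups received 250 µM of the compound for 12 h before LPS and IFNg were added; the treatment label of these samples is spelled Demethyl Itaconate. The Ctrl groups had the same stimulus without the compound, and both arms were sampled at 0, 1, 2, 4 and 6 h with 2 libraries each. The doses of LPS and IFNg, and whether Ctrl cells received a vehicle, are not given in the sources used here. The labels do not say whether the 2 libraries of a group came from separate mice or cultures. The p-values measure the spread between libraries of a group, estimated over all 10 groups of both arms, and this spread may be technical.

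As background, LPS signals through TLR4 and its adaptors MyD88 and TRIF to NF-kB, MAP kinases and IRF3, and IFNg signals through JAK kinases to STAT factors. A first set of genes (Tnf, Nfkbia, the immediate-early factors) is transcribed within minutes from factors already in the cell. A later set (Il6, Il12b, Nos2) needs proteins made in between, among them the nuclear inhibitor homologue IkBz (Nfkbiz), interferon beta and IRF family members. Dimethyl itaconate is an ester of itaconate, the metabolite made by the macrophage enzyme ACOD1; it is an electrophile that reacts with thiols and is known to switch on NRF2 target genes.

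Total counts were 4419532 and 4096388 in the DI libraries at 2 h and 4412540 and 6391921 at 1 h. Genes at 0 numbered 11428 and 12019 at 2 h and 11199 and 11372 at 1 h, against 9484 to 10310 in the 4 Ctrl libraries of these times. Replicate 2 at 2 h had the fewest genes detected of the 4 DI libraries, and the estimated number of reads per original molecule was 4.88 and 7.05 at 2 h and 4.26 and 6.89 at 1 h. The 22 macrophage identity genes summed to 10339 to 10944 CPM (counts scaled to the library total) at 2 h and 9620 to 10880 at 1 h. Of other cells, 10 neutrophil markers summed to 400 to 651 CPM at 2 h and 537 to 662 at 1 h over the 4 libraries. S100a9 (152 to 297 CPM), S100a8 (87.6 to 176) and Mmp8 (101 to 196) made up most of these sums, and Ly6g was at 0.226 CPM in 1 library and 0 in the other 3. Of the 9 markers tested, 0 were called by edgeR, DESeq2 or limma-voom. An unadjusted p under 0.05 was seen in 0 of them, beside 2060 of the 10663 genes tested. The part of neutrophils in the results was not tested. Lists for dendritic, T and NK, B, stromal, and mast and erythroid cells each summed to at most 49.1 CPM.

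In the second hour 300 genes rose and 167 fell in DI macrophages, with cytokine genes such as Il27, Tnf and Il6 and enzyme genes such as Nos2, Ptgs2 and Acod1 among the rises. The called genes are those with an adjusted p under 0.05 in edgeR's quasi-likelihood test, and they were 4.38% of the genes tested (2.81% higher and 1.57% lower). The median log2 fold change was 1.70 among the genes that rose and −1.64 among those that fell, against −0.03 over all genes tested. Of the 300 genes, 221 had a higher mean at 1 h than at 0 h, 128 of them by more than 2-fold. A higher mean at 4 h than at 2 h was seen in 193. Of the 167 genes that fell, 142 had a higher mean at 4 h than at 2 h and 20 had a higher mean at 4 h than at 1 h. These counts share 1 h or 2 h libraries with the comparison that chose the genes and are descriptions only. They were not made over all genes tested, so whether they are unusual cannot be told. Leaving out replicate 2 at 2 h left 214 calls (176 higher, 38 lower), and leaving out replicate 2 at 1 h left 232 (160 higher, 72 lower). A fit of the 4 libraries alone called 87 genes (81 higher, 6 lower), the DESeq2 Wald test 849 and a fit without the filter 712. Of 121 called genes that are named by the fixed rule, 68 lost their call in the fit of the 4 libraries and 60 without at least 1 single library. Loss in the fit of the 4 libraries is marked below for some genes only. Trak1, Brd1, Tlr2, Cflar, Nlrp3, Ripk2, Jak2, Ccl5 and Cxcl16 lost their calls there too.

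Predicted genes, genes that averaged under 20 CPM at both times and genes with overlapping libraries were left out of the ranking by size. Within these limits the rise of Il27 was the largest; the gene encodes a subunit of the cytokine interleukin 27. It had 40.2 and 49.0 CPM at 2 h, against 0.804 and 1.95 CPM at 1 h, a log2 fold change of 4.92 ± 0.40 (SE, adjusted p = 5.02e-08). Its level over the course averaged 2.56, 1.38, 44.6, 372 and 407 CPM at 0, 1, 2, 4 and 6 h. It thus left its starting level in the second hour and went on to 4 h. Nos2, the inducible nitric oxide synthase, had 15 and 25.3 CPM at 2 h, against 0.201 and 1.26 CPM at 1 h, a log2 fold change of 4.60 ± 0.59 (adjusted p = 2.35e-05). Tnfsf15, the TNF family cytokine TL1A, had 77.8 and 77.7 CPM at 2 h, against 0.402 and 5.02 CPM at 1 h (4.72 ± 0.55). Lhx2, a LIM homeobox transcription factor gene, had 40.6 and 97.0 CPM at 2 h, against 2.21 and 2.65 CPM at 1 h (4.80 ± 0.53). The libraries of the 2 times did not overlap for any of these genes, which the ranking required. Among all called genes this held for 299 of the 300 rises and 166 of the 167 falls, so here and below it adds little to a call. The 1 h values of Nos2 rest on 1 and 9 reads, and those of Il27 on 4 and 14.

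**Figure D1:**
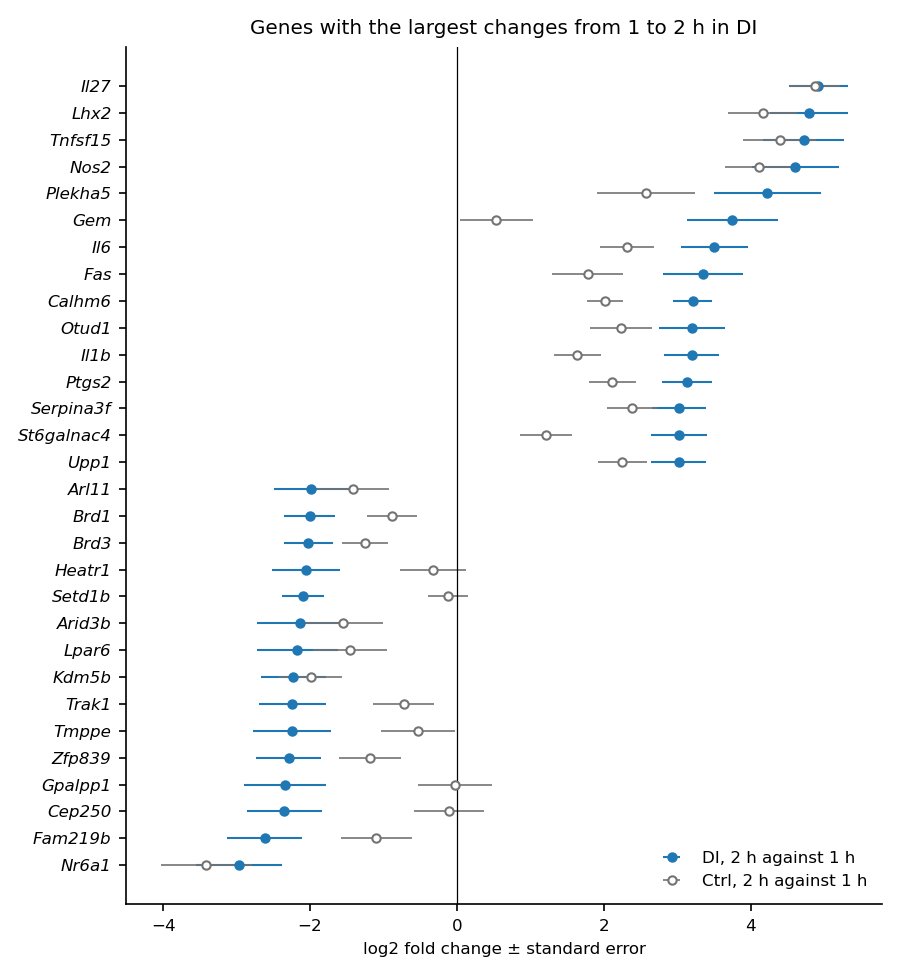
The 15 genes with the largest rise and the 15 with the largest fall from 1 to 2 h in DI libraries, among called genes of at least 20 CPM whose libraries did not overlap. Points are log2 fold changes with standard errors for DI (filled) and Ctrl (open); the rises run from 3.02 to 4.92 and the falls from −1.98 to −2.97 in DI.

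Other genes among the 15 largest rises came from several functional classes. Il6 had 17.0 and 29.4 CPM at 2 h, against 1.41 and 2.51 CPM at 1 h (3.51 ± 0.45, adjusted p = 2.72e-05). Calhm6, a channel family gene of immune cells, had 527 and 639.6 CPM at 2 h, against 74.7 and 51.5 CPM at 1 h (3.21 ± 0.27, adjusted p = 5.02e-08). Both genes kept their call under every alternative run. Upp1, which encodes uridine phosphorylase, had 34.7 and 30.2 CPM at 2 h, against 6.03 and 2.23 CPM at 1 h (3.02 ± 0.38). Fas, the death receptor, had 40.6 and 35.6 CPM at 2 h, against 7.03 and 0.837 CPM at 1 h (3.35 ± 0.55). The deubiquitinase gene Otud1 (3.20 ± 0.45), the sialyltransferase gene St6galnac4 (3.02 ± 0.38), the serpin gene Serpina3f (3.03 ± 0.36) and Gem, a small GTPase gene (3.75 ± 0.62), also rose. Plekha5, a pleckstrin homology domain gene, had 32.7 and 47.5 CPM at 2 h, against 4.42 and 0.139 CPM at 1 h (4.23 ± 0.73). The calls of Fas, Otud1 and Plekha5 were lost in the fit of the 4 libraries alone.

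Counted by the gain in CPM, the largest rises were in genes that were already high at 1 h. Acod1, the enzyme that makes itaconate itself, reached 13522 and 27229.8 CPM at 2 h, against 3311 and 4174 CPM at 1 h (2.44 ± 0.31, adjusted p = 1.42e-05). Rsad2, which encodes the antiviral protein viperin, had 12403 and 12230.2 CPM at 2 h, against 3304 and 2671 CPM at 1 h (2.04 ± 0.25, adjusted p = 1.41e-05). Cxcl10, a T cell-attracting chemokine, had 8399.5 and 9202 CPM at 2 h, against 2636 and 3196 CPM at 1 h (1.59 ± 0.25, adjusted p = 2.48e-04). All 3 genes were separated between the times, and for Acod1 the 2 libraries at 2 h were themselves far apart. The macrophage factor gene Irf8 had 2273 and 4906 CPM at 2 h, against 789.7 and 633 CPM at 1 h (2.33 ± 0.33). Ccl4 had 3905 and 4376 CPM at 2 h, against 584 and 695 CPM at 1 h (2.69 ± 0.28). Sdc4, a cell surface proteoglycan gene, had 3447 and 4881 CPM at 2 h, against 1617 and 1483 CPM at 1 h (1.43 ± 0.25), and its call was lost in the fit of the 4 libraries alone.

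The promoters of 4 of these genes are shown because each holds, within 250 bases before its start, a match to a motif of the factors that act downstream of LPS and IFNg. They are the 4 largest movers among the named rises and falls with 1 promoter entry and a match to AP-1, ISRE or GAS, a choice made after the shares of matches below were seen. Capitals mark matches on either strand to AP-1 (TGANTCA), ISRE (GAAANNGAAA), GAS (TTCNNNGAA), ARE (TGACNNNGC) or a loose NF-kB pattern (GGGNNNNNCC), and adjoining matches run together. The sequences are from RefSeq on GRCm38.p6, 5′ to 3′ in the direction of the gene: Il6 at chr5:30012864-30013113 (plus strand), Fas at chr19:34290409-34290658 (plus strand), Calhm6 at chr10:34127973-34128222 (minus strand) and Rsad2 at chr12:26456453-26456702 (minus strand).
Il6: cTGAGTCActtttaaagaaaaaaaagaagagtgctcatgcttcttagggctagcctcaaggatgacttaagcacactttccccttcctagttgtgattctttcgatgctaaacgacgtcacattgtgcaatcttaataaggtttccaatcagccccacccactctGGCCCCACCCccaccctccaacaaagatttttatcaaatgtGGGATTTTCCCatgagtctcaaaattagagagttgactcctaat
Fas: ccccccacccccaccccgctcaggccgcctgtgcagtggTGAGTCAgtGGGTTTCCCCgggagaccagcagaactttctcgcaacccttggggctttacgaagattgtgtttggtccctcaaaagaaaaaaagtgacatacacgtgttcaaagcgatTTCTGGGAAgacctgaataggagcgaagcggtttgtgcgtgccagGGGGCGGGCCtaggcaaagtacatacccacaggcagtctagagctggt
Calhm6: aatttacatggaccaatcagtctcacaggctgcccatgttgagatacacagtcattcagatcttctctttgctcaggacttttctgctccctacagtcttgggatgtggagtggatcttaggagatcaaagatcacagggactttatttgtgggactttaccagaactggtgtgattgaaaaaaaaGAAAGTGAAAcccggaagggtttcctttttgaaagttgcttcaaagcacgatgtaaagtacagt
Rsad2: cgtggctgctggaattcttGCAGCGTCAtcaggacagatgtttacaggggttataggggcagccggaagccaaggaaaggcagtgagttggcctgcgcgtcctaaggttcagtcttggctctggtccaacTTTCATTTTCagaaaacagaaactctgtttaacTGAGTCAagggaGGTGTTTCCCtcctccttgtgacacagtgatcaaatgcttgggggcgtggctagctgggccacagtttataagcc

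In Il6 the NF-kB pattern lies 44 bases before the start and AP-1 at 249 bases, and in Calhm6 the only match is an ISRE at 64 bases. Rsad2 holds an ISRE at 120 bases, AP-1 at 87 bases and an ARE at 231 bases, and Fas holds AP-1 at 211 bases and GAS at 93 bases. Over 300-base windows (250 before the start and 50 after it), a gene was counted if any of its promoters held a match. ISRE matched 10.5% of 248 genes that rose (95% Wilson interval 7.26 to 14.9). It matched 3.05% of 131 genes that fell (1.19 to 7.59) and 4.17% of 8484 tested genes with a promoter. AP-1 matched 12.9% of the genes that rose (9.29 to 17.6), 1.53% of those that fell (0.42 to 5.40) and 6.19% of all tested. GAS matched 14.9% of the genes that rose (11 to 19.9), 3.05% of those that fell (1.19 to 7.59) and 8.36% of all tested. A TATA box (TATAAA) was in 15.7%, 9.92% and 8.75%. The pattern GGGNNNNNCC matched 76.6% of the genes that rose, 80.2% of those that fell and 72.0% of all tested, so it is too frequent in these windows to set the groups apart. ARE matched 18.5%, 21.4% and 17.0%, and CRE (TGACGTCA) 2.82%, 6.87% and 3.76%. Counted per promoter, the shares over all 32851 promoters were 3.44% for ISRE, 7.81% for AP-1, 8.30% for GAS and 13.6% for the TATA box. They were 50.8% for the NF-kB pattern, 12.4% for ARE and 1.79% for CRE. A gene with several promoters has more chances of a match, so these are not like for like with the shares per gene. The intervals cover counting error only, and a match is a description of the letters, not a bound site.

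**Figure D2:**
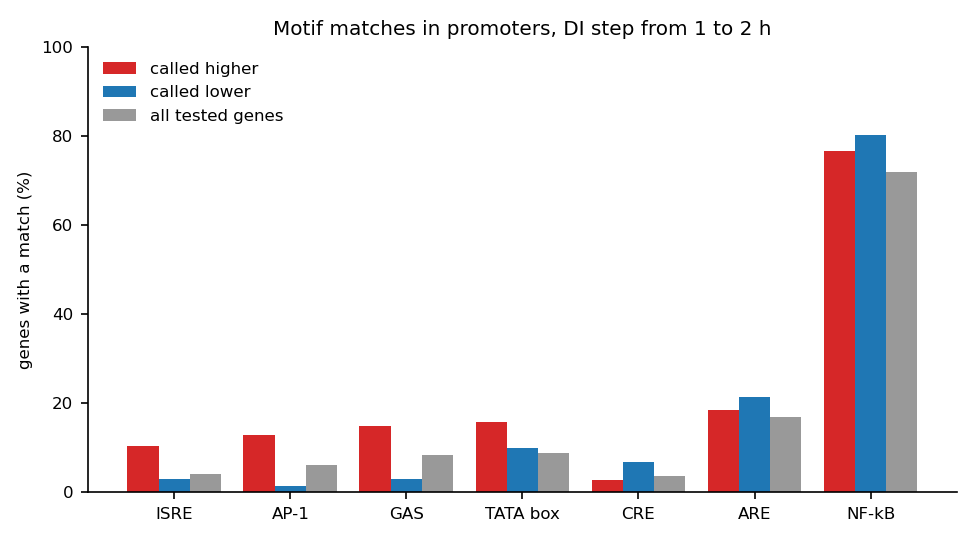
Share of genes with at least 1 motif match in the 300-base promoter window, in percent, for genes called higher (n = 248), called lower (n = 131) and all tested genes with a promoter (n = 8484). ISRE, AP-1 and GAS were more frequent among genes called higher (10.5, 12.9 and 14.9%) than among all tested (4.17, 6.19 and 8.36%).

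Of 27 tested members of the cytokine list 13 were called higher, 0 lower and 14 not called, beside 2.81% called higher over all genes, with a median log2 fold change of 1.55 against −0.03 over all genes. Tnf, the first cytokine of the LPS response, had 1076 and 1269.6 CPM at 2 h, against 184 and 190.1 CPM at 1 h (2.65 ± 0.28, adjusted p = 2.38e-06). Il1b, the precursor of interleukin 1 beta, had 46.3 and 36.1 CPM at 2 h, against 5.63 and 3.49 CPM at 1 h (3.20 ± 0.38, adjusted p = 1.02e-05), and was at 0 in both libraries at 0 h. Il15, a cytokine for NK and memory T cells, had 273 and 322 CPM at 2 h, against 48.2 and 55.2 CPM at 1 h (2.52 ± 0.27). In each of these genes both 2 h libraries lay above both 1 h libraries. Inhba, the activin A subunit (2.18 ± 0.39), and Il1rn, the interleukin 1 receptor antagonist (1.55 ± 0.25), rose too. Lif, leukaemia inhibitory factor, had 6.13 and 11.6 CPM at 2 h and 0 CPM in both libraries at 1 h. That is 17.4-fold higher against a floor of 3 counts per library. With an estimated 4.26 and 6.89 reads per molecule at 1 h, this floor is under 1 molecule. The fold is therefore not a lower limit. Ifnb1 (3.10 ± 0.83), Edn1 (3.45 ± 0.75), Tnfsf10 (1.72 ± 0.39) and Csf1 (1.42 ± 0.41) were called, but each call was lost without 1 or more single libraries: Tnfsf10 without replicate 2 at 2 h or replicate 1 at 1 h, Edn1 without replicate 1 at 2 h or replicate 2 at 1 h, Ifnb1 without any library but replicate 2 at 2 h, and Csf1 without any 1 of the 4. Lif lost its call without replicate 2 at 1 h.

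Il12b, the p40 subunit of interleukins 12 and 23 and a gene of the later set, stood apart from the list. It had 0 and 1.29 CPM at 2 h, against 0.402 and 0.837 CPM at 1 h in DI (−0.10 ± 0.96, adjusted p = 0.977), near or below the floor of 3 counts at each time. In Ctrl it had 767 and 739 CPM at 2 h, against 52.3 and 74.2 CPM at 1 h (3.57 ± 0.41, adjusted p = 1.85e-05). The difference between these steps was −3.67 ± 1.07 (adjusted p = 0.499, and 0.024 to 1 over the alternatives), so it did not pass the test. The sign of the DI value turned under 3 alternatives.

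**Figure D3:**
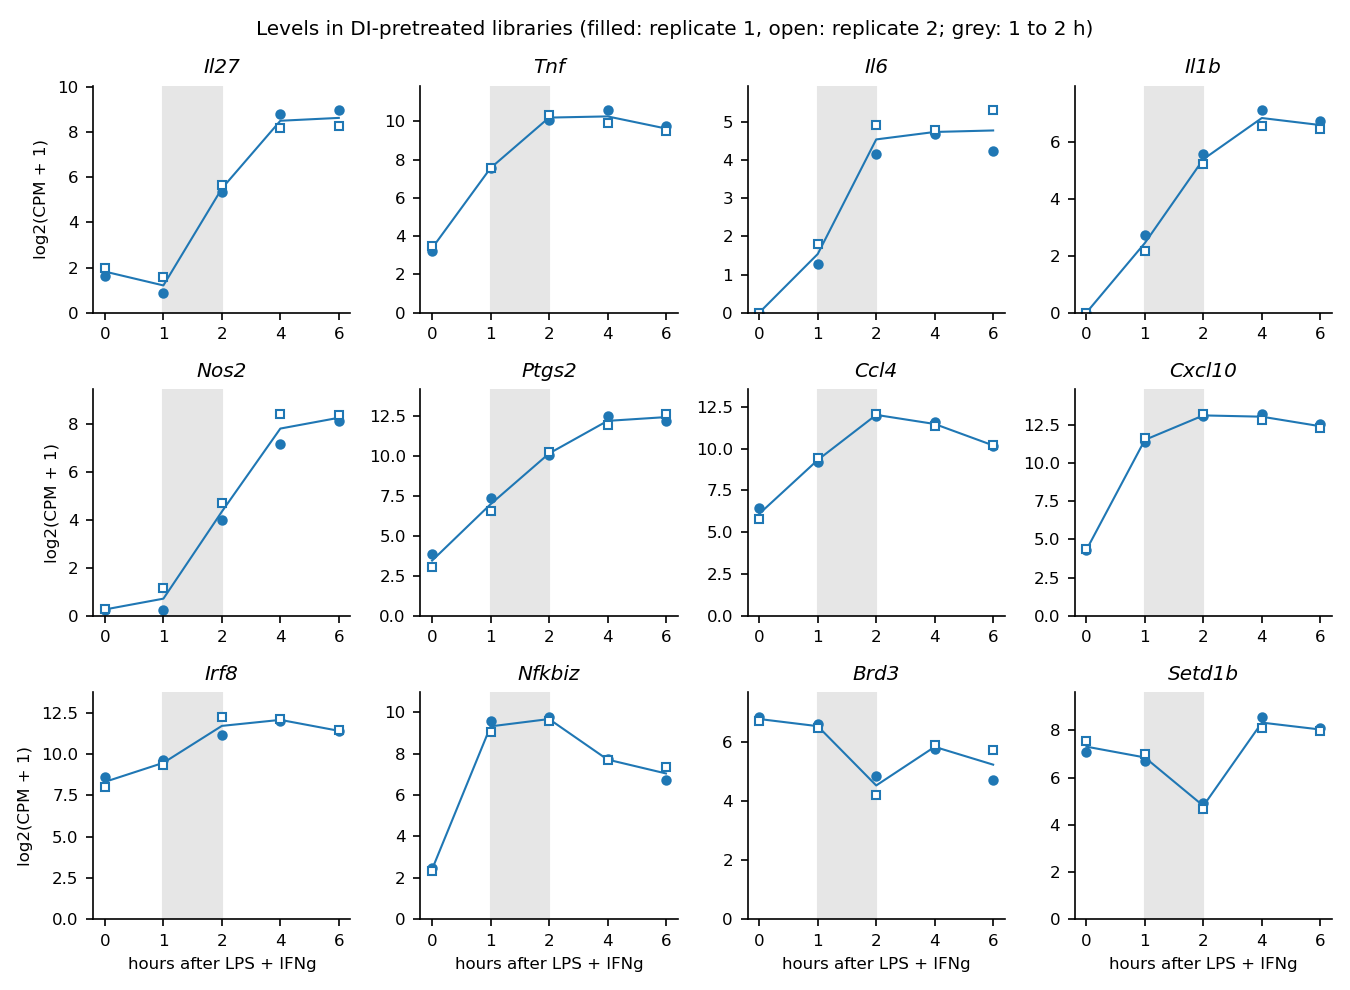
Levels of 12 genes in each DI library, as log2(CPM + 1), at 0, 1, 2, 4 and 6 h after LPS and IFNg; lines join the means of the 2 libraries and the grey band marks the step from 1 to 2 h. Il27 and Nos2 leave the baseline in the band, Nfkbiz is already high at 1 h, and Brd3 and Setd1b drop within it.

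Chemokine genes rose in 13 of 19 tested members, with 0 lower, beside 2.81% of all genes called higher. The median was 1.61 (1.59 with the 2 members that were at 0 at 1 time set to the floor of 3 counts). Ccl3, which attracts monocytes and T cells, had 1148 and 846 CPM at 2 h, against 185 and 115 CPM at 1 h (2.73 ± 0.33). Ccrl2, a non-signalling chemerin receptor counted in this list, had 249 and 282 CPM at 2 h, against 32.3 and 39.3 CPM at 1 h (2.89 ± 0.29, adjusted p = 1.34e-06). Cxcl9, a ligand of CXCR3 like Cxcl10, had 1391 and 1135 CPM at 2 h, against 299.99 and 203 CPM at 1 h (2.33 ± 0.35). The groups did not overlap for any of them. The monocyte-attracting genes Ccl2 (1.61 ± 0.30), Ccl7 (1.71 ± 0.26) and Ccl12 (1.94 ± 0.28) rose, as did Ccl5 (1.49 ± 0.27) and Cxcl16 (1.29 ± 0.26). Cxcl2, the neutrophil-attracting chemokine, had 5014 and 4101 CPM at 2 h, against 3956 and 2565 CPM at 1 h, and did not pass (0.48 ± 0.29, adjusted p = 0.371). Cxcl1 (1.42 ± 0.38) and Cxcl11 (1.66 ± 0.46) lost their calls without any 1 of the 4 libraries. Ccl22 was at 1.82 and 2.06 CPM at 2 h and 0 at 1 h (3.80-fold higher against the same floor, which is not a lower limit). It lost its call without replicate 2 at 2 h or either library at 1 h.

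**Figure D4:**
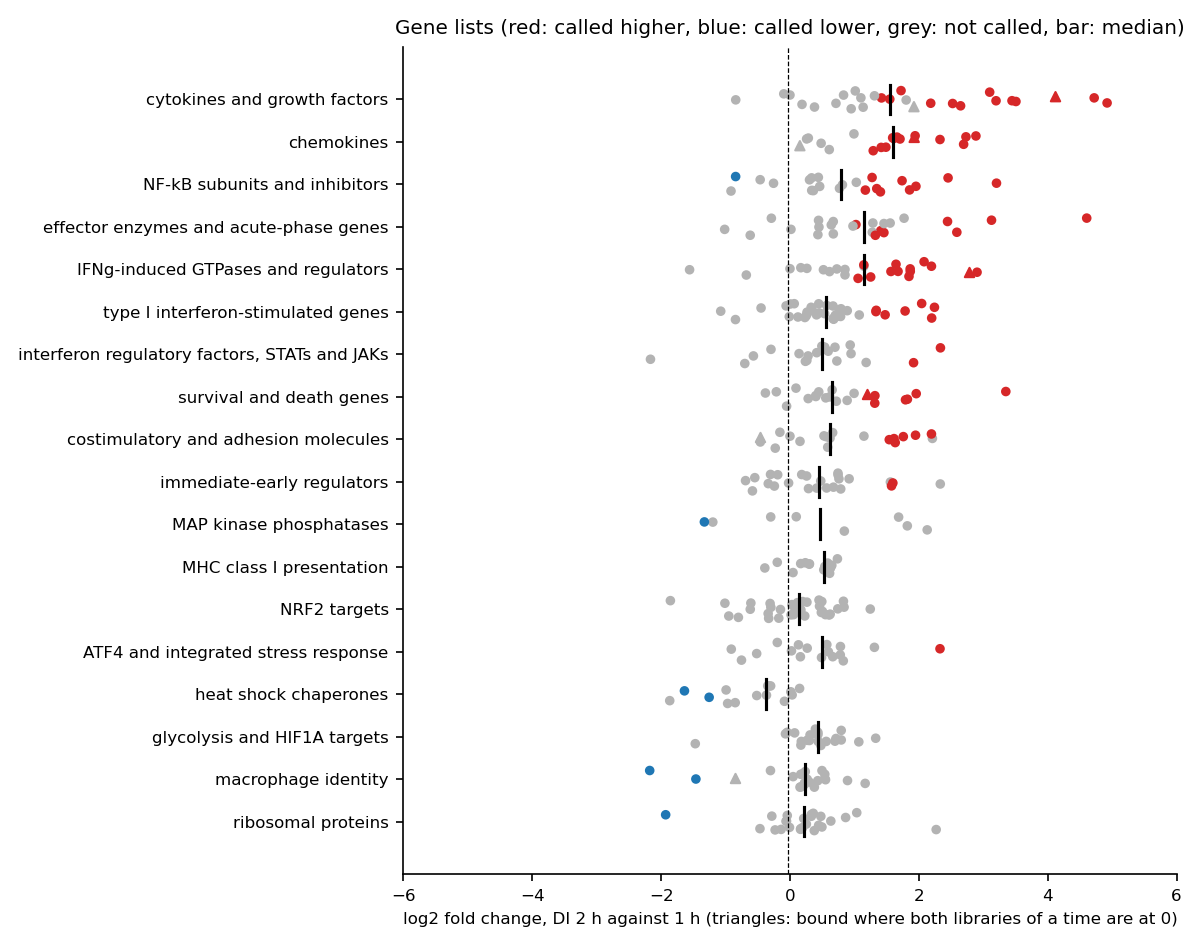
Log2 fold changes from 1 to 2 h in DI for the tested members of 18 gene lists, with called genes in colour, the list median as a bar and the median of all genes (−0.03) as a dashed line. Triangles are bounds for genes at 0 in both libraries of 1 time. Cytokines and chemokines have medians of 1.55 and 1.59, while NRF2 targets have 0.14 with no call.

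Among NF-kB subunits and inhibitors, 9 of 22 were called higher and 1 lower, with a median of 0.79. Over all genes 2.81% were called higher and 1.57% lower. Rel, the subunit c-Rel, had 475 and 336 CPM at 2 h, against 68.7 and 79.4 CPM at 1 h (2.45 ± 0.27, adjusted p = 3.88e-06). Nfkb1, which encodes p105 and p50, had 308 and 472 CPM at 2 h, against 109 and 91.9 CPM at 1 h (1.95 ± 0.26), and Bcl3, a nuclear inhibitor homologue, rose by 1.86 ± 0.31. For Rel and Nfkb1 both 2 h libraries were higher than both 1 h libraries. Nfkbia, the classical inhibitor IkBa, had 4406 and 5906 CPM at 2 h, against 2153 and 3713 CPM at 1 h, and did not pass (0.81 ± 0.26, adjusted p = 0.0776). Nfkbiz had 885 and 758 CPM at 2 h, against 764 and 536 CPM at 1 h (0.34 ± 0.25, adjusted p = 0.507). The libraries of the 2 times overlapped, and its mean at 4 h was lower (210.0 CPM). Tnip3, an inhibitor that binds A20, had 920.3 and 951 CPM at 2 h, against 1590.4 and 1766 CPM at 1 h, and was called lower (−0.84 ± 0.24, adjusted p = 0.0466). The call of Tnip3 was lost without any 1 of the 4 libraries and with other scalings, that of Nfkbie without replicate 1 of either time, and that of Traf1 without replicate 2 of either time. Tnfaip3, Nfkb2 and Birc3 lost their calls without any library but replicate 1 at 2 h.

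Of IFNg-induced GTPases and regulators, 13 of 24 were called higher and 0 lower, beside 2.81% of all genes called higher, with a median of 1.15. Gbp4, a guanylate-binding protein gene, had 177 and 117 CPM at 2 h, against 25.7 and 13.8 CPM at 1 h (2.90 ± 0.33, adjusted p = 4.08e-06). Igtp, the immunity-related GTPase Irgm3, had 186 and 255 CPM at 2 h, against 55.3 and 49.1 CPM at 1 h (2.08 ± 0.27). Socs1, the inhibitor of JAK kinases, had 1108 and 1192 CPM at 2 h, against 303 and 328 CPM at 1 h (1.87 ± 0.26). In all 3 genes the libraries of the 2 times were apart. Gbp2 (1.85 ± 0.26), Gbp7 (1.87 ± 0.26) and Irgm2 (1.57 ± 0.27) rose as well, while Irf1, an early target of IFNg, had 3076 and 3839 CPM at 2 h, against 1619 and 2557 CPM at 1 h (0.73 ± 0.26, adjusted p = 0.121). Gbp5, Gbp8, Iigp1, Batf2, Tgtp1 and Tgtp2 lost their calls without 2 or more single libraries, replicate 2 at 1 h in each case. Tgtp1 and Tgtp2, and Bcl2a1b and Bcl2a1d of the survival list, are near-identical copies between which reads could be split, and their values are uncertain. Igtp and Irgm2, and Gbp4 and Gbp8, overlap on the same strand in the annotation. Their reads may not be cleanly assigned either.

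Type I interferon-stimulated genes were called higher in 7 of 36, beside 2.81% of all genes, with 0 lower and a median of 0.55. Cmpk2, a mitochondrial nucleotide kinase gene beside Rsad2, had 894 and 868 CPM at 2 h, against 185 and 187 CPM at 1 h (2.24 ± 0.30). Oasl1, of the oligoadenylate synthetase-like family, had 369.7 and 365 CPM at 2 h, against 73.3 and 86.6 CPM at 1 h (2.20 ± 0.26). Mx1, an antiviral dynamin-like GTPase gene, had 475 and 451 CPM at 2 h, against 153 and 116 CPM at 1 h (1.79 ± 0.27). These genes were separated by far more than the spread within a time. The other 29 members did not pass, among them Isg15, the ubiquitin-like modifier, with 108 and 75.3 CPM at 2 h, against 62.9 and 52.2 CPM at 1 h (0.68 ± 0.36, adjusted p = 0.312). Among interferon regulatory factors, STATs and JAKs 2 of 19 were called higher, beside the same 2.81% of all genes. These were Irf8 and Jak2 (1.92 ± 0.36). Of 15 MHC class I presentation genes, 0 passed in edgeR, in DESeq2 and in limma-voom, and the median was 0.52. An unadjusted p under 0.05 was seen in 5 of them, beside 2060 of the 10663 genes tested. Ifit1 lost its call without replicate 1 at 2 h or replicate 2 at 1 h, and Ifit2 without these or replicate 2 at 2 h.

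Effector enzymes and acute-phase genes were called higher in 8 of 24, with 0 lower and a median of 1.15. For this and the lists that follow, 2.81% of all genes were called higher. Ptgs2, the inducible cyclooxygenase, had 1079.8 and 1195 CPM at 2 h, against 167 and 93.9 CPM at 1 h (3.13 ± 0.34, adjusted p = 3.09e-06), and averaged 4762 CPM at 4 h. Slc7a2, the cationic amino acid transporter that brings in arginine, had 34.5 and 49.3 CPM at 2 h, against 5.02 and 8.65 CPM at 1 h (2.59 ± 0.48). Both genes were higher in each 2 h library. Costimulatory and adhesion molecules rose in 6 of 19, among them Cd40 (2.20 ± 0.37) and Icam1 (1.95 ± 0.25). Survival and death genes rose in 7 of 21, with the caspase 8 inhibitor gene Cflar at 1661 and 1784 CPM at 2 h, against 737 and 646 CPM at 1 h (1.32 ± 0.24), and with the pro-apoptotic gene Bbc3 at 12.7 and 29.9 CPM at 2 h, against 6.23 and 4.74 CPM at 1 h (1.96 ± 0.44). Gadd45b (1.82 ± 0.32), a stress-response gene, and Ripk2 (1.79 ± 0.28), the kinase of the NOD receptors, rose too. The inflammasome genes Il1b and Nlrp3 (1.37 ± 0.26) were the 2 called of 10. Clec4e and Cd83 lost their calls without replicate 1 at 2 h or replicate 2 at 1 h, and Fpr2 without these or replicate 2 at 2 h. Gch1 lost its call without either library at 1 h, Bbc3 and Bcl2a1b without replicate 2 of either time, and Itga4 and Cd86 without replicate 2 at 1 h. Sod2 lost its call without any library but replicate 1 at 2 h, and Bcl2a1d without any but replicate 2 at 2 h.

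Across 30 lists of response, stress and housekeeping genes, 86 of 563 tested members were called higher (15.3%, against 2.81% of all genes) and 7 lower. The members called higher numbered 56 without replicate 2 at 1 h and 41 in the fit of the 4 libraries alone. Of 36 NRF2 targets, the genes that the pretreatment is known for, edgeR called 0, with a median of 0.14. Of these targets 8 had an unadjusted p under 0.05, limma-voom called 0, and the DESeq2 Wald test called 2 higher and 1 lower. Over all 10663 genes tested, 2060 had an unadjusted p under 0.05, limma-voom called 487 and the DESeq2 Wald test 849. Gclm, a subunit of the enzyme that makes glutathione precursors, had 2511 and 2614 CPM at 2 h, against 2920.1 and 1944 CPM at 1 h, and Hmox1, heme oxygenase, had 209 and 239 CPM at 2 h, against 183 and 144 CPM at 1 h. Their levels in Ctrl at 2 h were 185 and 149 CPM and 22.6 and 28.8 CPM. Gclc, the other subunit of the same enzyme as Gclm, was lower at 2 h but not called by edgeR. It had 2531 and 1877 reads at 2 h, against 6603 and 5147 reads at 1 h in DI, before scaling for library size. Replicate 2 at 1 h was the deepest of the 4 libraries (6391921 counts), so these reads overstate the fall. In Ctrl too Gclc had fewer reads at 2 h (179 and 303) than at 1 h (418 and 707). No member was called in 9 further lists (endoplasmic reticulum, glycolysis and HIF1A, metallothioneins, cholesterol, motility, cell cycle, circadian, oxidative phosphorylation and reference genes), where medians ran from −0.62 for circadian genes to 0.59 for metallothioneins. In each of these lists 0 to 7 members had an unadjusted p under 0.05, DESeq2 called 0 to 2 and limma-voom 0 or 1. The motility list had the most at an unadjusted p under 0.05, 7 of 17. The 12 reference genes had a median of 0.42 in DI and −0.0009 in Ctrl. List medians near 0.42 in DI are thus like that of the reference genes. Of these genes Actb had 8684 and 12278 CPM at 2 h, against 9688 and 8734 CPM at 1 h in DI.

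Of 24 immediate-early genes, which LPS induces first, 2 were called higher and 0 lower in DI, with a median of 0.45, beside 2.81% of all genes called higher. In Ctrl 0 were called higher and 5 lower, with a median of −0.29, beside 0.778% of all genes called lower. The 12 reference genes had medians of 0.42 in DI and −0.0009 in Ctrl, so the immediate-early median in DI is close to theirs. Egr1, a growth-response factor, had 89.6 and 65.8 CPM at 2 h, against 79.6 and 78.2 CPM at 1 h in DI (−0.02 ± 0.32, adjusted p = 0.987). In Ctrl Egr1 had 156 and 149 CPM at 2 h, against 505 and 584 CPM at 1 h (−1.84 ± 0.33, adjusted p = 0.00113). The DI libraries of Egr1 lay below the Ctrl libraries at both times; they overlapped between 2 h and 1 h in DI and did not overlap in Ctrl. Dusp1, the MAP kinase phosphatase MKP-1, had 566 and 791 CPM at 2 h, against 565 and 703 CPM at 1 h in DI (0.10 ± 0.29), and 244 and 346 CPM at 2 h, against 810.1 and 738 CPM at 1 h in Ctrl (−1.39 ± 0.29, adjusted p = 0.00467). Junb had 588 and 909.7 CPM at 2 h, against 224 and 278 CPM at 1 h in DI (1.58 ± 0.30, adjusted p = 0.00224), and its call was lost without replicate 2 at 2 h. Jun, a subunit of AP-1, had 673 and 745 CPM at 2 h, against 1299 and 987 CPM at 1 h in DI (−0.69 ± 0.30, adjusted p = 0.199), and 505 and 448 CPM at 2 h, against 2089 and 1543 CPM at 1 h in Ctrl (−1.93 ± 0.31, adjusted p = 4.38e-04). Maff (1.60 ± 0.31), a small MAF factor gene, was the other call in DI and was also lost without replicate 2 at 2 h. In Ctrl Junb had 658 and 709 CPM at 2 h, against 556 and 838 CPM at 1 h (−0.03 ± 0.30). The differences between the steps were 1.82 ± 0.45 for Egr1, 1.49 ± 0.41 for Dusp1 and 1.60 ± 0.42 for Junb, and none passed (adjusted p = 0.31, 0.39 and 0.348; over the alternatives 0.0273 to 0.981, 0.0744 to 1 and 0.0627 to 1).

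Smaller regulatory lists had 1 or 2 calls each, beside 2.81% of all genes called higher. Of 17 LPS receptor and adaptor genes 2 were called higher, with a median of 0.41. Tlr2, a receptor for bacterial lipoproteins, had 13.6 and 13.2 CPM at 2 h, against 1.0 and 1.95 CPM at 1 h (3.11 ± 0.53, adjusted p = 5.93e-04). Irak2, a kinase of the Toll-like receptor pathway, had 73.8 and 66.8 CPM at 2 h, against 44.4 and 20.6 CPM at 1 h (adjusted p = 0.0473), and lost its call without either library at 2 h or replicate 2 at 1 h. Among 12 genes of cytokine signalling feedback, Socs1 and Cish were called higher and the median was −0.19. Cish, an inhibitor of STAT5 signalling, had 54.9 and 58.3 CPM at 2 h, against 8.24 and 11.3 CPM at 1 h (2.52 ± 0.62). Its groups were far apart, yet the call was lost without replicate 2 at 2 h or either library at 1 h. Of 13 mRNA decay regulators Zfp36 and Zc3h12c were called higher, with a median of 0.37. Zfp36, the mRNA-destabilising protein tristetraprolin, had 1149 and 1315 CPM at 2 h, against 652 and 669 CPM at 1 h in DI (0.90 ± 0.26, adjusted p = 0.0467). In Ctrl it had 749.7 and 1042 CPM at 2 h, against 1131 and 1165 CPM at 1 h (−0.36 ± 0.26, adjusted p = 0.712). Without replicate 2 at 2 h or either library at 1 h the call of Zfp36 was lost, and that of Zc3h12c (1.10 ± 0.31) without any 1 of the 4 libraries. Psat1, a serine synthesis enzyme gene, was the 1 call among 17 genes of the integrated stress response (2.33 ± 0.56) and was lost without replicate 2 at 1 h.

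The 167 genes that fell included Setd1b, Brd1, Brd3 and Kdm5b, genes of chromatin regulators, and 42 of the 167 averaged under 20 CPM at both times. Setd1b, which encodes a histone H3 lysine methyltransferase, had 29.7 and 24.3 CPM at 2 h, against 102 and 128 CPM at 1 h (−2.09 ± 0.29, adjusted p = 4.50e-05). Its mean was 160.0 CPM at 0 h and 325 CPM at 4 h, so the low level was seen at 2 h alone. Brd3, a bromodomain protein gene, had 28.1 and 17.5 CPM at 2 h, against 98.1 and 88.0 CPM at 1 h (−2.02 ± 0.33, adjusted p = 3.69e-04). Brd1, another bromodomain gene, had 25.0 and 17.0 CPM at 2 h, against 63.5 and 105 CPM at 1 h (−2.0 ± 0.35), and the histone demethylase gene Kdm5b had 2.95 and 10.6 CPM at 2 h, against 31.7 and 31.0 CPM at 1 h (−2.23 ± 0.45). As the ranking required, groups did not overlap in any of these 4 genes, and Kdm5b lost its call without replicate 1 at 2 h. Setd1b and Brd3 kept their calls under every alternative run.

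Nr6a1, an orphan nuclear receptor gene, fell most under the same limits on level and overlap as for Il27, with 3.86 and 2.32 CPM at 2 h, against 25.7 and 23.2 CPM at 1 h (−2.97 ± 0.59, adjusted p = 0.00303), and lost its call without replicate 2 at 2 h. Trak1, a gene of mitochondrial transport, had 4.09 and 4.64 CPM at 2 h, against 19.1 and 22.2 CPM at 1 h (−2.24 ± 0.46). Cebpa, a myeloid factor gene, had 2.72 and 3.35 CPM at 2 h, against 9.44 and 18 CPM at 1 h (−2.18 ± 0.58), and lost its call without either library at 2 h or replicate 2 at 1 h. Of 15 heat shock list members Hspd1 (−1.25 ± 0.32) and Bag3 (−1.64 ± 0.43) were called lower, beside 1.57% of all genes. Of 8 MAP kinase phosphatase genes Dusp4 (−1.33 ± 0.34) was called lower. The calls of all 3 were lost without replicate 2 at 2 h and without 1 or both libraries at 1 h. By the drop in CPM, Ncl, which encodes the nucleolar protein nucleolin, had 399.9 and 329 CPM at 2 h, against 589 and 1353 CPM at 1 h (−1.41 ± 0.32, adjusted p = 0.0112). Ywhae, a 14-3-3 protein gene, had 529.7 and 322 CPM at 2 h, against 795 and 1140.2 CPM at 1 h in DI (−1.18 ± 0.30), and 874 and 573 CPM at 2 h, against 431 and 569 CPM at 1 h in Ctrl (0.53 ± 0.29, adjusted p = 0.504). Prr13 (−1.57 ± 0.35) and Ankrd12 (−1.15 ± 0.29) were called lower as well. Ncl and Ywhae were separated between the times in DI, with 1 h libraries far apart from each other, and lost their calls without replicate 2 of either time. So did Cep250 (−2.35 ± 0.51) and Gpalpp1 (−2.34 ± 0.56), which are among the 15 largest falls. Prr13 and Heatr1 (−2.06 ± 0.46) lost their calls without any library but replicate 1 at 1 h, and Lpar6 (−2.17 ± 0.55) without any but replicate 2 at 1 h. Ankrd12, Tmppe (−2.25 ± 0.54) and Arl11 (−1.98 ± 0.51) lost theirs without replicate 2 at 2 h or replicate 1 at 1 h, and Arid3b (−2.14 ± 0.58) without replicate 1 of either time. Zfp839 (−2.29 ± 0.44) lost its call without replicate 1 at 2 h and Fam219b (−2.62 ± 0.51) without replicate 2 at 2 h. The ribosomal protein gene Rps23 had 375 and 372 CPM at 2 h, against 345 and 2498 CPM at 1 h; the groups overlap and its call (−1.93 ± 0.51) rests on replicate 2 at 1 h, without which it was 0.11. It was the 1 call among 25 ribosomal genes, beside 1.57% of all genes called lower. Col3a1, a stromal collagen gene, was at 0 in both libraries at 2 h, against 2.01 and 3.91 CPM at 1 h. That is 4.07-fold lower against the floor of 3 counts, which is not a lower limit. Col3a1 lost its call without any of the libraries but replicate 1 at 1 h.

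Beside the same step in Ctrl macrophages, where 392 genes were called (3.68%; 309 higher and 83 lower), the DI step had 300 rises. The Ctrl split was 239 higher and 121 lower with scaling on genes of at least 32 CPM. With each arm fitted alone on its 4 libraries, 1081 genes were called in Ctrl and 87 in DI. Of the genes called higher, 151 were called in both arms, 50.3% of the DI calls and 48.9% of the Ctrl calls; of those called lower, 28 were shared, 16.8% of the DI calls and 33.7% of the Ctrl calls. No gene was called in opposite directions. Of the 300 genes that rose in DI, 294 had a positive value in Ctrl, with medians of 1.70 in DI and 1.22 in Ctrl, and 252 had the larger value in DI; these genes were chosen by their DI values, which favours that order. At 1 h 271 of the 300 had a lower mean in DI than in Ctrl, and 229 had both DI libraries under both Ctrl libraries. At 2 h these counts were 208 and 168. Of the 167 genes that fell in DI, the same counts were 34 and 13 at 1 h and 137 and 109 at 2 h. Both sets were chosen by their DI values at these times, which favours these shifts, so the counts are descriptions only. The same counts were not made over all genes tested, so whether they are unusual cannot be told. Tnf, one of the rises, had a smaller gap at 2 h. Its mean was 1173 CPM in DI against 1432 CPM in Ctrl at 2 h, and 187 CPM in DI against 730.1 CPM in Ctrl at 1 h.

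The test of the difference itself, the DI step minus the Ctrl step, called 0 genes in edgeR (721 at an unadjusted p under 0.05), 0 in limma-voom, 19 with the DESeq2 Wald test and 37 without the filter on low counts. The smallest p-values among named genes belonged to genes chosen here after their values were seen. Setd1b changed by −1.97 ± 0.39 relative to Ctrl (adjusted p = 0.141, and 0.001 to 0.686 over the alternatives), where it had 52.9 and 59.6 CPM at 2 h, against 54.3 and 68.3 CPM at 1 h. Ccrl2 had a difference of 1.81 ± 0.38 (adjusted p = 0.148, and 0.001 to 0.683) and Tnf one of 1.67 ± 0.37 (adjusted p = 0.201, and 0.00315 to 0.981 over the alternatives). Gem (3.21 ± 0.78) and Bbc3 (2.52 ± 0.61) had larger differences at low levels, with an adjusted p of 0.292 each (0.0155 to 0.712 for Gem and 0.0396 to 1 for Bbc3 over the alternatives). Without replicate 1 at 2 h of DI 11 genes were called, and without any other single library 0 or 1.

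**Figure D5:**
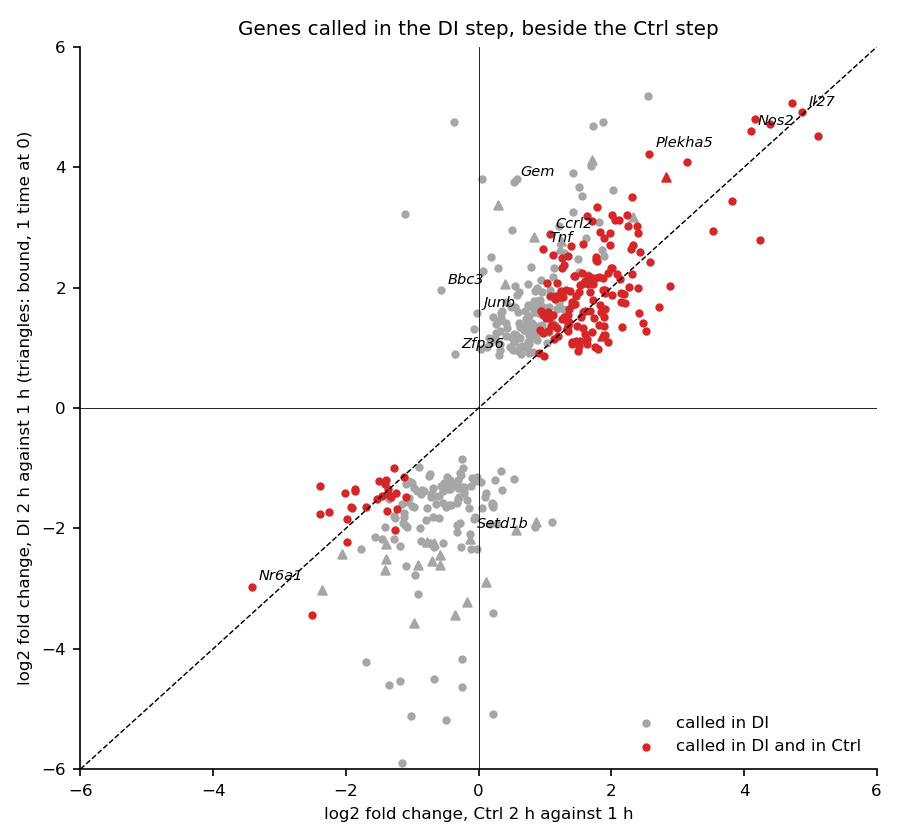
Log2 fold changes from 1 to 2 h in DI (y axis) and in Ctrl (x axis) for the 467 genes called in DI, in red where also called in Ctrl; triangles are bounds for genes at 0 at 1 of the times, and the dashed line marks equal steps. Most rises lie above the line (252 of 300), which the choice of genes by their DI values favours.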

How the data were processed

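RNA was sequenced from mouse macrophage libraries primed with barcoded oligo-dT, which reads 3′ ends; pools were amplified for 12 PCR cycles, per the labels' protocols. STAR, HTSeq, DESeq2 and the build mm10 are listed, with no version, per the submitters' processing notes. The deposited table holds raw counts per gene; 21745 of 22165 genes matched a symbol in GENCODE M21. All 20 libraries (10 groups of 2) were fitted in 1 quasi-likelihood model with edgeR 4.0.16 (R 4.3.3; limma 3.58.1, DESeq2 1.42.0), after filterByExpr and TMM scaling, with Benjamini-Hochberg adjustment over 10663 genes. SE is from the F statistic. CPM values carry TMM factors, except marker sums. The floor is 3 counts per library; intervals cover counting error only. Replicates differed beyond sampling noise (chi-square per degree of freedom 30.4 and 35.5). The scripts were tested on simulated data. Reads per molecule were estimated from the share at 0 of genes with 4 to 12 expected reads. Named genes are the 15 largest rises and falls of at least 20 CPM without overlap, the 6 largest changes in CPM each way, a fixed panel and called list members, without predicted genes; those past the test of the difference would have been added. Members and lists were chosen with earlier results of these data known. Some genes are not reported here.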

Additional observations from a re-analysis of the deposited data

How the results depend on the processing

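Genes called in the DI step numbered 470 with size factors of DESeq2, 486 with scaling on genes of at least 32 CPM, 489 with the stricter filter and 487 in limma-voom, against 467. They moved to 712 without a filter, 849 in the DESeq2 Wald test and 87 in the fit of the compared groups alone, and to between 214 and 594 without 1 library. The fit of the 4 libraries alone estimates the spread from those libraries only, and the main fit from both arms. Chi-square per degree of freedom between replicates at 2 h and 1 h was 30.4 and 35.5 in DI and 24.2 and 23 in Ctrl. In Ctrl, 392 calls became 646 in the DESeq2 test, 1081 in the fit of 4 libraries, 882 on estimated molecules and 136 to 228 without 1 library; the cause was not tested. The difference between steps had 37 calls without a filter, 19 in the DESeq2 test and 0 to 11 without 1 library. Scaling on genes of at least 32 CPM moved the median of Ctrl steps to −0.15, against −0.04, and that of the differences to 0.11, against −0.02. List members called higher were 41 in the fit of 4 libraries and 56 to 82 without 1 library; members called lower were 14 without a filter, 4 in limma-voom, 1 in the fit of 4 libraries and 2 to 6 without 1 library. Motif shares over all tested genes with 250 bases in place of 300 were 66.4% for NF-kB, 3.62% for ISRE, 5.41% for AP-1, 3.19% for CRE, 7.28% for GAS, 14% for ARE and 7.90% for the TATA box; the window is shorter.

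Of 121 named genes called in DI, 60 lost the call without at least 1 library and 48 kept it under every alternative. Direction turned in genes near 0: Egr1 (0.000942 with DESeq2 size factors, 0.0012 in its Wald test), Il12b (0.54 on estimated molecules), Il10 (−0.16) and Txnrd1 (−0.00135) in limma-voom. Without 1 library, the DI values of genes that turned ran from −0.0982 to 0.898 for Relb, −0.101 to 0.494 for Ebi3, −4.96 to 1.02 for Il12b (0.57 without replicate 2 at 1 h), −1.83 to 1.32 for Il10, −0.18 to 0.24 for Txnrd1, −0.68 to 0.10 for Fos, −3.10 to 3.29 for Nr4a1, −0.17 to 0.38 for Dusp1, −1.77 to 0.099 for Marco, −0.19 to 0.39 for Gclm, −0.0854 to 0.48 for Actb, −0.199 to 0.183 for Egr1, −2.75 to 0.11 for Rps23, −0.066 to 0.64 for Socs3 and −0.39 to 0.91 for Ifit3. The fitted value of Il23a, a gene with reads in few libraries, was 0 at the lowest and 7.53 at the highest, which is no bound. Rps23 was the 1 called gene among them.

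A fit with the replicate number as a block called 411 genes in the DI step (275 higher, 136 lower), 381 in Ctrl and 0 in the difference. Deviations of same-numbered DI libraries correlated at 0.043 over all genes and 0.12 over genes of at least 32 CPM, and with 2 pairs the numbers are not shown to pair the libraries. Depth limits genes under about 20 CPM most: 53 of the 300 rises and 42 of the 167 falls lie there.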
